A study of Mus musculus with 24 samples.

Results

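The 34 genes described here encode enzymes of glycolysis (21 genes), the pentose phosphate pathway (7 genes) and glycogen metabolism (6 genes). They are a list of enzymes by pathway step, drawn up with earlier results of these data known, and were matched by symbol to the gene identifiers of a count table of 55357 genes. All 34 passed the filter on low counts that left 14985 genes for testing, and together they held 0.588 to 2.01% of the counts of a library. RNA-seq was done on macrophages grown from femur and tibia bone marrow of wild-type C57BL/6J mice aged 8 to 12 weeks, in medium with 10% L929 supernatant, which supplies the macrophage growth factor M-CSF. At 4 h and again at 24 h there were 4 groups of 3 libraries. These were untreated cells, cells given 100 nM dexamethasone (a synthetic glucocorticoid), cells given 100 ng LPS (lipopolysaccharide of bacterial walls, with no volume stated), and cells given both. All groups shared the genotype, the strain and the growth factor source. Whether a group's 3 libraries came from separate mice or from 1 culture is not in the labels, so the p-values rest on the spread among these libraries, which may be technical.

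Glycolysis splits glucose into pyruvate in the cytosol, and its flow is set mainly at hexokinase and at phosphofructokinase. The PFKFB enzymes make and remove fructose 2,6-bisphosphate, the strongest activator of phosphofructokinase, and lactate dehydrogenase turns pyruvate into lactate and so restores NAD+. The pentose phosphate pathway branches off at glucose 6-phosphate and yields NADPH and ribose, while glycogen synthase and glycogen phosphorylase store and release glucose units. Macrophages activated by LPS are known for a high use of glucose and for making lactate in the presence of oxygen.

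Library totals ran from 18326206 to 27908164 counts. Levels are given as CPM, counts scaled by library size and edgeR's TMM factor to the usual CPM unit, or as CPM per kb of summed exon length where genes are compared with each other. Log2 fold changes carry a standard error, and a gene is called higher or lower at an adjusted p under 0.05 by the quasi-likelihood test of edgeR, after Benjamini-Hochberg adjustment across all 14985 genes. The treatments left their known marks: Fkbp5, a glucocorticoid target, went from 52.4 ± 0.526 CPM (SD, n = 3) untreated to 1480 ± 4.53 CPM after 4 h of dexamethasone, and Tnf from 35.6 ± 1.59 to 2020 ± 112 CPM after 4 h of LPS. All 8 macrophage markers were detected in every group, with summed means of 17800 to 51000 CPM. Neutrophil markers summed to 10.6 to 150 CPM, dendritic cell markers to 0.971 to 18.9 CPM, lymphocyte markers to 0.241 to 1.72 CPM, mast cell and basophil markers to 0.191 to 4.7 CPM, erythroid markers to 0 to 0.229 CPM, and stromal and endothelial markers, mainly Kdr and Pdgfrb, to 2.36 to 169 CPM with the highest sum in LPS at 4 h. Their part in the results below was not tested. In bulk RNA, fewer cells of a type and less RNA per cell cannot be told apart.

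The scale matters for the 4 h LPS groups. With library size alone in place of TMM, the median of all genes shifted by -0.77 on the log2 scale in LPS against untreated at 4 h and by -0.55 in LPS plus dexamethasone against untreated at 4 h. The shift was 0.22 in LPS plus dexamethasone against LPS at 4 h, -0.20 in LPS against untreated at 24 h and -0.17 in LPS plus dexamethasone against untreated at 24 h, and under 0.1 in the other comparisons of groups. The 4 h changes below are therefore relative to the bulk of expressed genes, and each direction that turns with library size alone is named beside its value. The shares of all tested genes given below are by the TMM scale, and do not apply to counts of members with library size alone.

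**Figure D1:**
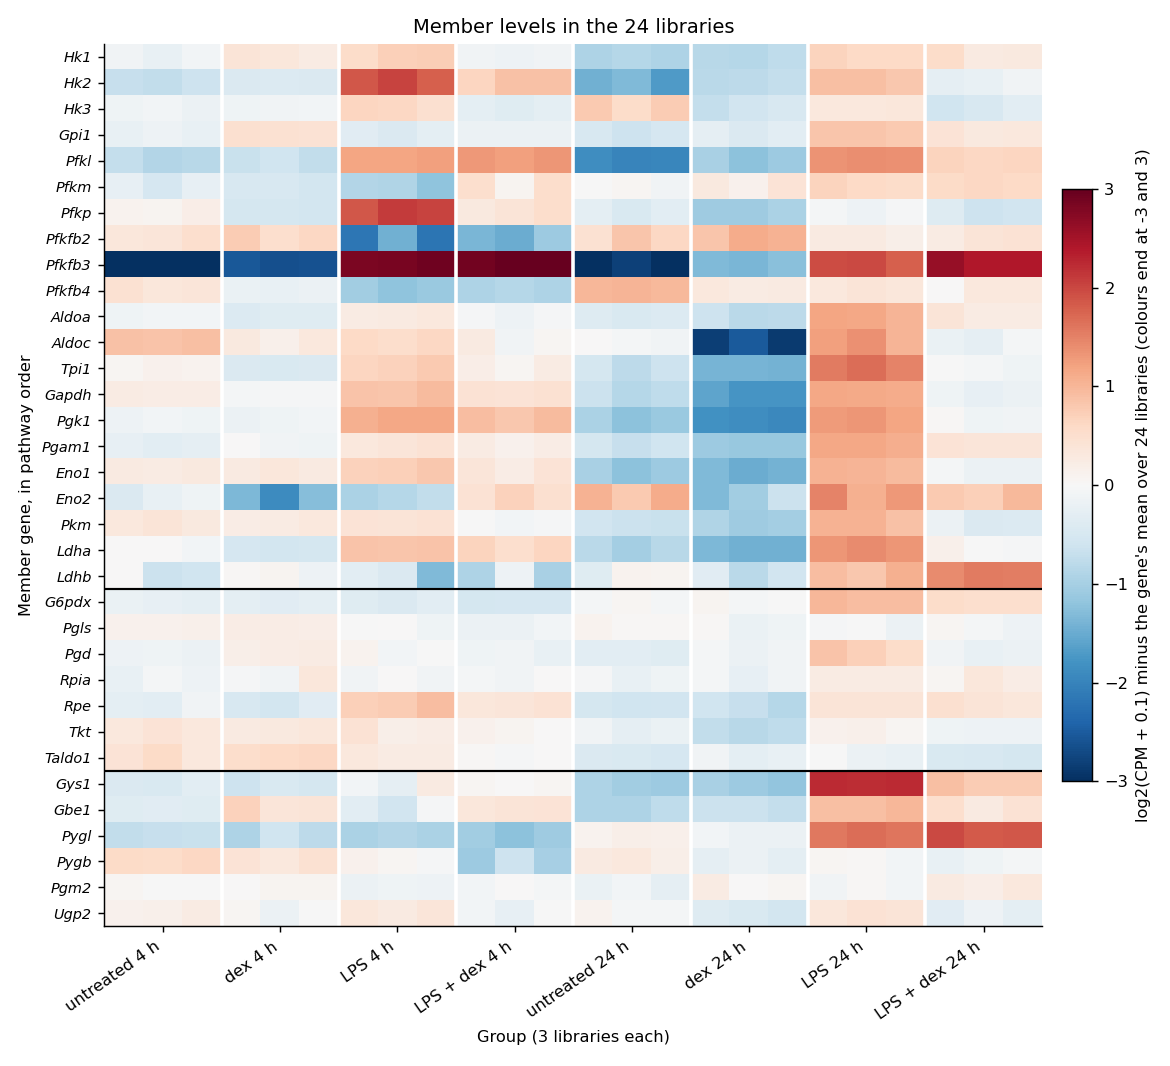
Rows are the 34 member genes in pathway order, with lines between glycolysis, pentose phosphate and glycogen genes, and columns are the 24 libraries in 8 groups of 3. Colour gives log2(CPM + 0.1) minus the gene's own mean over the 24 libraries. Pfkfb3 changes most, from 29.7 to 31.5 CPM in untreated libraries to 2280 to 2450 CPM in LPS libraries at 4 h, and most glycolytic rows reach their highest colour in LPS at 24 h.

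In untreated cells the members with the highest levels per length were 4 genes of middle and lower glycolysis and 1 of the pentose phosphate pathway. At 4 h Pkm (pyruvate kinase) stood at 441 CPM per kb, Aldoa (aldolase) at 346, Gapdh (glyceraldehyde 3-phosphate dehydrogenase) at 296, Taldo1 (transaldolase, of the pentose phosphate pathway) at 234 and Ldha (lactate dehydrogenase A) at 223 CPM per kb. The lowest members were Pfkfb2 at 1.27, Ldhb (lactate dehydrogenase B) at 1.96 and Eno2 (the neuronal type of enolase) at 2.24 CPM per kb. Pfkfb3 stood at 4.02 CPM per kb in untreated cells at 4 h and at 311 CPM per kb after 4 h of LPS, where it ranked the sixth of the 34. With LPS plus dexamethasone it ranked the third at both times, at 351 CPM per kb at 4 h and 236 CPM per kb at 24 h. Pfkfb2 was the last in rank in 6 of the 8 groups.

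By the TMM scale the summed level of all 34 members did not overlap between any of the 4 groups at either time. At 4 h the sums were 9973 to 10270 CPM in untreated libraries, 9574 to 9812 with dexamethasone, 16000 to 16610 with LPS and 13210 to 13680 with LPS plus dexamethasone. At 24 h they were 6229 to 6732 CPM untreated, 5004 to 5488 with dexamethasone, 19010 to 20390 with LPS and 10820 to 11920 with both. As a share of raw counts, which needs no scaling factor, the members held 1.17 to 1.22% in untreated, 1.11 to 1.15% in dexamethasone, 1.090 to 1.171% in LPS and 1.058 to 1.095% in LPS plus dexamethasone libraries at 4 h. The LPS libraries then overlapped those with dexamethasone and those with both agents, and the libraries with both agents, above the untreated ones by the TMM scale, lay below them. At 24 h they held 0.701 to 0.760% in untreated, 0.588 to 0.625% in dexamethasone, 1.89 to 2.01% in LPS and 1.09 to 1.19% in LPS plus dexamethasone libraries. By raw share the LPS libraries stood above the untreated ones at 24 h, and at or below them at 4 h.

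The first comparison asks what LPS alone did to these enzymes at 4 h and at 24 h. At 4 h, 17 members were higher, 12 lower and 5 not called, where 34.2% of all tested genes were called higher and 38.8% lower. At 24 h, 28 were higher, 4 lower and 2 not called, where 29.7% of all tested genes were called higher and 30.6% lower. The median member log2 fold change was 0.12 at 4 h and 1.16 at 24 h, against -0.07 and -0.02 over all tested genes. At 24 h 18 members rose at least 2-fold, 14 of the 21 glycolytic genes, 1 of the 7 pentose phosphate genes and 3 of the 6 glycogen genes, where 10.3% of all tested genes were called at least 2-fold higher.

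At 4 h the called rises held 13 glycolytic genes, but with library size alone 6 members stayed higher: Hk2, Pfkl, Pfkp, Pfkfb3, Pgk1 and Rpe. Under that scaling Hk1 and Ldha were no longer called, at 0.03 and 0.09, and Hk3, Aldoa, Tpi1, Gapdh, Pgam1 and Eno1 turned to -0.06, -0.39, -0.16, -0.12, -0.12 and -0.30. The count of lower members went from 12 to 25. This scaling moved the median of all genes by -0.77, so the shares of all tested genes given above do not apply to these counts. With DESeq2 and with RLE size factors the count of lower members was 7, with Gpi1, G6pdx, Pgls, Taldo1 and Pgm2 no longer called. The calls of 6 members at 4 h, all with log2 fold changes between -0.18 and 0.15, were also lost when single libraries were left out.

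At the rate-setting steps the isoenzymes differed in their response. At the first step, Hk2, the inducible hexokinase, was at 55.8, 53.9 and 58.7 CPM in untreated libraries and at 329, 366 and 309 CPM in LPS libraries at 4 h. By 24 h it was at 32.8, 35.7 and 27.7 CPM untreated and at 167, 168 and 156 CPM with LPS. The groups did not overlap at either time, and the log2 fold changes were 2.58 ± 0.07 (adjusted p = 2.4e-26) and 2.35 ± 0.08 (adjusted p = 3.6e-24). Hk1, the widely expressed hexokinase, rose by 0.80 ± 0.06 (adjusted p = 2e-14) from 119 to 131 CPM untreated to 203 to 232 CPM with LPS at 4 h, and by 1.52 ± 0.06 (adjusted p = 7.3e-22) from 72.5 to 77.1 to 208 to 221 CPM at 24 h.

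Hk3, the hexokinase of myeloid cells, went the other way in time. It was at 170, 175 and 165 CPM untreated and 290, 287 and 260 CPM with LPS at 4 h, a log2 fold change of 0.72 ± 0.06 (adjusted p = 2.9e-12) that turned to -0.06 with library size alone. At 24 h it was at 321, 272 and 316 CPM untreated and 233, 232 and 236 CPM with LPS, a log2 fold change of -0.37 ± 0.06 (adjusted p = 4.3e-06). Its share of the 3 hexokinases per kb was 85.3% ± 1.93 (SD, n = 3) in untreated cells at 24 h and 54.8% ± 0.94 with LPS, and at 4 h 65.6% ± 1.72 and 48% ± 1.66. The share does not depend on the scaling factor, and was lower with LPS at both times.

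Phosphofructokinase, the committed step, has 3 genes whose products mix in tetramers. Pfkl, the liver type, was at 86.9, 77.7 and 81.2 CPM untreated and at 325, 328 and 340 CPM with LPS at 4 h. At the later time it was at 39.6, 36.1 and 36.9 CPM untreated and at 364, 380 and 373 CPM with LPS. Its log2 fold change was 2.01 ± 0.06 (adjusted p = 1.2e-27) at 4 h and 3.31 ± 0.06 (adjusted p = 2.1e-32) at 24 h, with no overlap between groups. Pfkp, the platelet type, was at 109, 107 and 115 CPM untreated and 370, 429 and 414 CPM with LPS at 4 h, and at 82.5, 74.1 and 81.1 CPM against 97.2, 90.5 and 97.9 CPM at 24 h. Its log2 fold change of 1.87 ± 0.06 (adjusted p = 4.8e-25) at 4 h was 0.27 ± 0.06 (adjusted p = 0.00051) at 24 h, and the latter was not called with library size alone (0.07).

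Pfkm, the muscle type, was the least abundant of the 3 per kb in both groups with LPS at 4 h. It was at 13.9, 11.5 and 13.9 CPM untreated and at 8.88, 8.67 and 7 CPM with LPS at 4 h, lower in every LPS library (log2 fold change -0.68 ± 0.12, adjusted p = 3.9e-06). At 24 h it was at 16.4, 17 and 15.2 CPM untreated and at 26, 25 and 24 CPM with LPS, higher in every LPS library (0.62 ± 0.10, adjusted p = 1.9e-06). Part of its exon sequence, 10.7%, is shared with Senp1 and Gm26513.

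Pfkfb3 (ENSMUSG00000026773, chromosome 2, 11476244 to 11558888 on the minus strand in the GENCODE M29 annotation of the count table) is 1 of 3 members that set fructose 2,6-bisphosphate. Of these, Pfkfb3, whose product strongly favours making it, rose most of the 34 members at both times. It was at 29.7, 31.5 and 30 CPM untreated and at 2280, 2330 and 2450 CPM with LPS at 4 h. After 24 h the gene was at 39.1, 46 and 38.4 CPM untreated and at 1260, 1270 and 1110 CPM with LPS. Log2 fold changes were 6.28 ± 0.08 (adjusted p = 3.1e-35) and 4.88 ± 0.08 (adjusted p = 4.1e-32), and the change was smaller at 24 h than at 4 h by a test of that difference (-1.40 ± 0.10, adjusted p = 3.9e-14).

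The other PFKFB genes fell. Pfkfb4 was at 41.4, 38.5 and 39.1 CPM untreated and at 14.7, 13 and 13.9 CPM with LPS at 4 h (-1.52 ± 0.08, adjusted p = 2.6e-19), and at 60.2, 61.1 and 59.3 against 37.8, 39.6 and 38.5 CPM at 24 h (-0.64 ± 0.07, adjusted p = 2.7e-10). Pfkfb2 was at 8.77, 8.99 and 9.94 CPM untreated and 1.46, 2.51 and 1.44 CPM with LPS at 4 h (-2.35 ± 0.17, adjusted p = 1.3e-14). At 24 h Pfkfb2 was at 9.64, 12.5 and 10.8 CPM untreated and 8.35, 8.43 and 7.94 CPM with LPS (-0.42 ± 0.13, adjusted p = 0.0073), a call lost without untreated 24 h replicate 2 (-0.31, adjusted p = 0.075). Of Pfkfb2's exon sequence 19.5% is shared with Yod1 and Gm29427. Pfkfb4 made up 60.6% ± 1.54 of the 3 genes per kb in untreated cells at 4 h and 0.905% ± 0.0727 with LPS, while Pfkfb3 went from 29.9% ± 1.27 to 99% ± 0.0637.

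**Figure D2:**
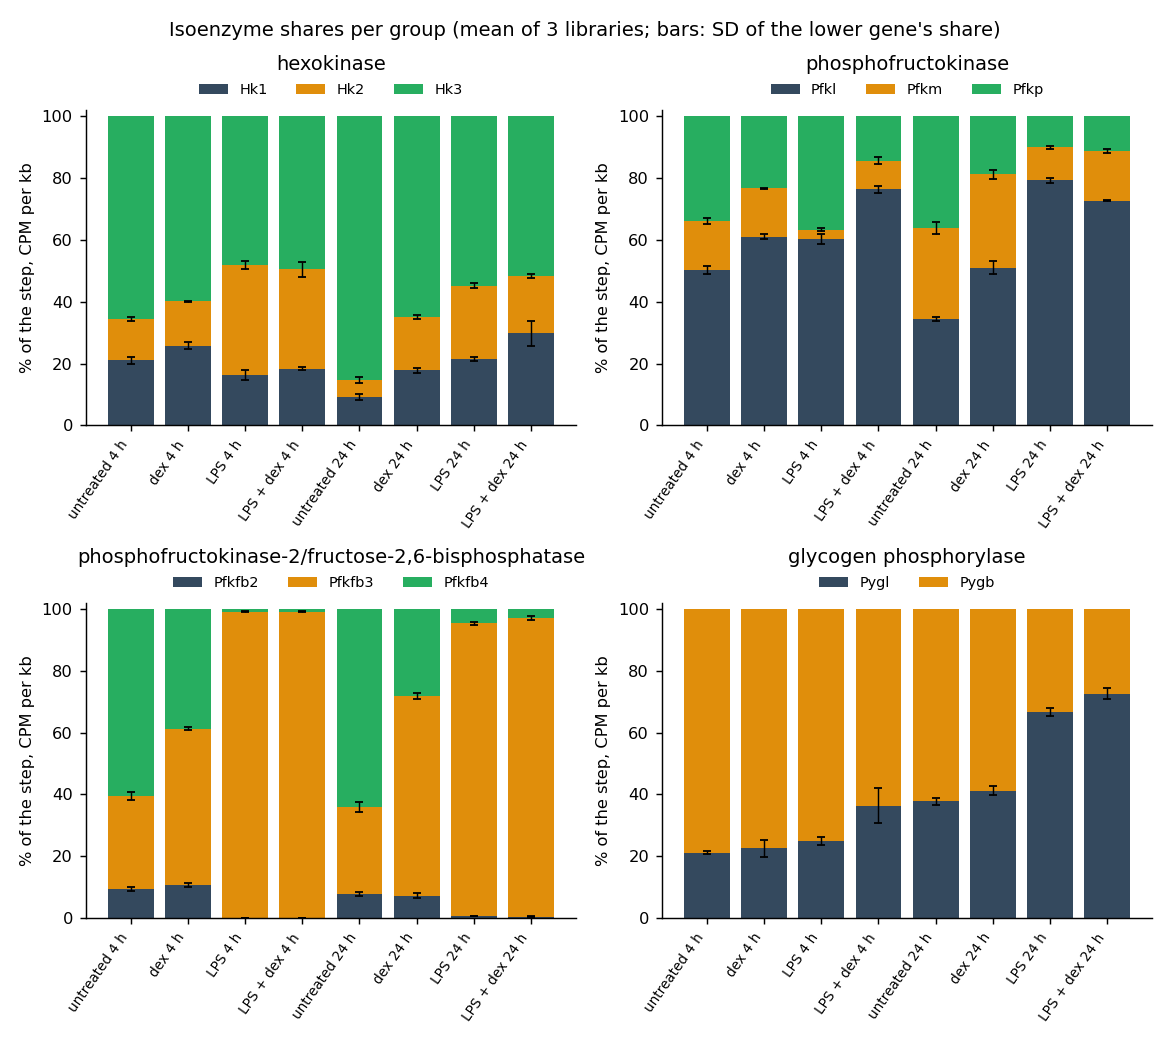
Stacked bars give each gene's share, in percent, of the summed CPM per kb of its enzyme step in the 8 groups (mean of 3 libraries, with error bars for the SD of each gene except the top one). Pfkfb3 fills 94.2 to 99.1% of its step in every library with LPS, Pfkl goes from 34.3% in untreated cells to 79.3% with LPS at 24 h, and Pygl from 37.7% to 66.6%.

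In the middle and lower steps the 24 h rises ran through the whole chain. Gpi1 (glucose 6-phosphate isomerase) was at 428, 448 and 432 CPM untreated and 393, 370 and 409 CPM with LPS at 4 h (-0.16 ± 0.05, adjusted p = 0.0046, but adjusted p = 0.073 with RLE size factors). At 24 h Gpi1 was at 359, 328 and 351 CPM untreated and 886, 890 and 860 CPM with LPS (1.34 ± 0.05, adjusted p = 3.7e-23). Tpi1 (triose phosphate isomerase) was at 386, 407 and 398 against 579, 601 and 638 CPM at 4 h (0.61 ± 0.06, adjusted p = 3.8e-12, but -0.16 with library size alone). At 24 h it was at 257, 217 and 243 against 1090, 1180 and 1050 CPM (2.21 ± 0.06, adjusted p = 1.1e-27). For these genes the LPS libraries lay well above the untreated ones at 24 h.

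Gapdh, often used as a reference gene for normalisation, was not constant. It was at 1240, 1210 and 1220 CPM untreated and 1880, 1860 and 2010 CPM with LPS at 4 h (0.65 ± 0.05, adjusted p = 1.4e-13, but -0.12 with library size alone). At 24 h the libraries were at 664, 576 and 611 CPM untreated and 2310, 2300 and 2240 CPM with LPS (1.89 ± 0.05, adjusted p = 1.3e-26). Gapdh has 161 near-identical genes (90% identity over at least 50% of its coding sequence), whose own counts came to 6.81% of its counts. How reads were split between them was not tested. The other abundant steps at 24 h rose by 1.53 (Aldoa), 2.35 (Pgk1), 1.74 (Pgam1), 2.10 (Eno1) and 1.62 (Pkm), with standard errors of 0.05 to 0.06. Of these 5, Pgk1 (phosphoglycerate kinase) was also higher at 4 h under every scaling, with a log2 fold change of 1.25 ± 0.06 (adjusted p = 2e-20). Part of Pkm's exon sequence, 15.3%, is shared with Gm49759.

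At the last step Ldha was at 747, 756 and 709 CPM untreated and 1340, 1330 and 1350 CPM with LPS at 4 h (0.86 ± 0.06, adjusted p = 1.9e-16, not called with library size alone). At 24 h it was at 422, 367 and 417 CPM untreated and 1880, 1980 and 1880 CPM with LPS (2.25 ± 0.06, adjusted p = 4.4e-28). At 4 h Ldhb, whose product favours the use of lactate, overlapped between the groups, at 4.06, 2.53 and 2.62 untreated and 3.19, 2.97 and 1.56 CPM with LPS. By 24 h the levels were at 3.12, 4.34 and 4.3 CPM untreated and 7.75, 7.13 and 8.48 CPM with LPS (0.99 ± 0.20, adjusted p = 4.9e-05). Ldha remained the main gene of the pair, at no less than 96.7% per kb in any library.

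The minor aldolase and enolase genes followed other courses. Aldoc (the brain type of aldolase) was at 28, 27.3 and 28.5 CPM untreated and 22.9, 21.7 and 23.2 CPM with LPS at 4 h (-0.30 ± 0.09, adjusted p = 0.004), and at 15.2, 14.4 and 14.1 against 35.4, 39 and 30.8 CPM at 24 h (1.27 ± 0.09, adjusted p = 2.2e-14). Eno2 was at 9.33, 10.8 and 11.5 CPM untreated and 6.43, 6.9 and 7.56 CPM with LPS at 4 h (-0.59 ± 0.16, adjusted p = 0.0013). At 24 h Eno2 was at 26, 21.8 and 27.3 against 35.4, 26.3 and 31.4 CPM, where the groups overlapped and the call (0.31 ± 0.13, adjusted p = 0.034) was lost without untreated replicate 2 (adjusted p = 0.18), LPS replicate 1 (0.21) or LPS replicate 3 (0.074).

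**Figure D3:**
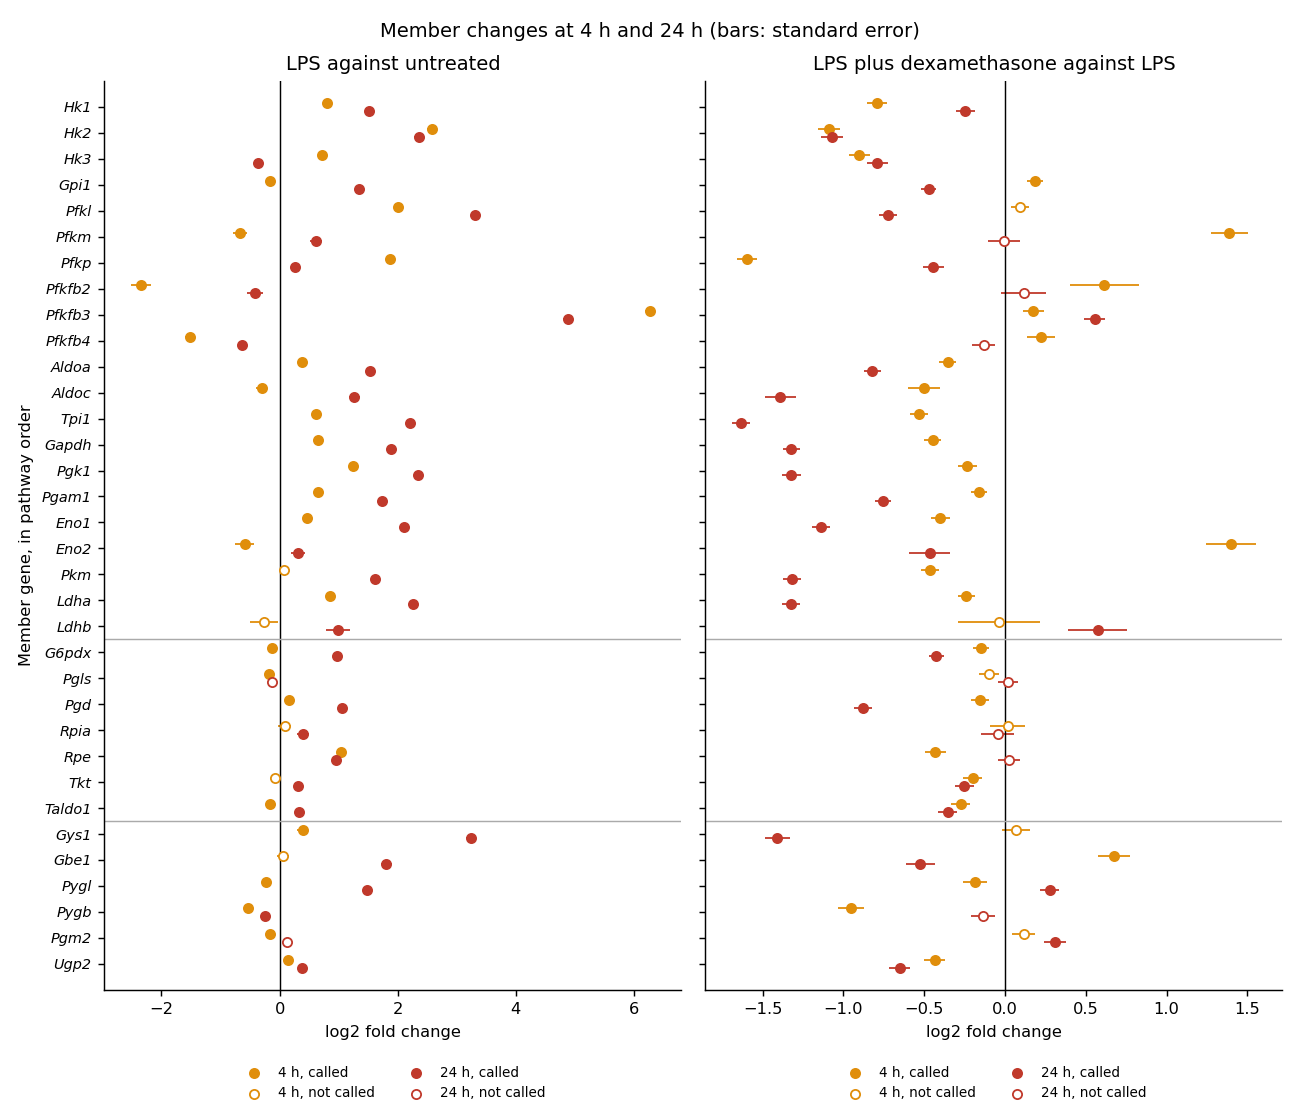
Each row is a member gene, the horizontal axis is the log2 fold change with its standard error, orange is 4 h and red 24 h, and filled points are called at an adjusted p under 0.05. On the left, LPS against untreated has 28 filled points to the right of 0 at 24 h and 17 at 4 h (at 4 h, 6 with library size alone). On the right, LPS plus dexamethasone against LPS has 23 filled points to the left of 0 at 24 h and 21 at 4 h (13 at 4 h with library size alone).

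Upstream sequences are shown because several genes that rose here, Hk2, Pgk1 and Ldha, are textbook targets of the hypoxia-inducible factor, which binds a core of the letters ACGTG. RefSeq promoters (build GRCm38.p6) were found for all 34 members, as 50 start sites, and the 250 bases before each start were searched on both strands, with overlapping matches counted as 1 site. ACGTG was present in 36.0% of the member windows, in 16.6% of all 32851 windows and in 21.1% of the 13080 windows of genes tested here. At least 1 site was found for 14 members: Aldoa, Hk2, Hk3, Ldha, Pfkfb2, Pfkfb3, Pfkm, Pgam1, Pgk1, Pgm2, Pkm, Pygb, Pygl and Ugp2. Of these, Pfkfb2 and Pygb were lower with LPS at both times. Pfkl, Gys1, Tpi1, Gapdh, Eno1 and Gbe1, which rose with LPS at 24 h, had no site. Whether sites go with the response was not tested. Some member windows overlap, such as those of Aldoa with a site. The 3 members with 2 or more sites in a window were Hk2, Ldha and Pgk1, each in 1 window. Among the windows of tested genes 2.91% had 2 or more. CACGTG, the E-box, which contains ACGTG on both strands, was in 8.0% of member windows and 8.24% of the windows of tested genes. Median GC content was 59.8% in member windows and 59.2% in the windows of tested genes. The windows of these 3 genes and the upstream window of Pfkfb3, the gene that rose most, follow from 5′ to 3′ on the strand of the gene, with each ACGTG site in capitals on either strand (CACGT where it lies on the other strand, CACGTG where both overlap).
Ldha (chr7:46845554-46845803, plus strand): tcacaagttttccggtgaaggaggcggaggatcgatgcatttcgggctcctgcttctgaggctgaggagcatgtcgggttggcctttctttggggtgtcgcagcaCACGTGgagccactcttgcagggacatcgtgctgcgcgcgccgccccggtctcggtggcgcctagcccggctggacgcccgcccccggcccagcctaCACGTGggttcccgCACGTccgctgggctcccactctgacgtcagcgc
Pgk1 (chrX:106186850-106187099, plus strand): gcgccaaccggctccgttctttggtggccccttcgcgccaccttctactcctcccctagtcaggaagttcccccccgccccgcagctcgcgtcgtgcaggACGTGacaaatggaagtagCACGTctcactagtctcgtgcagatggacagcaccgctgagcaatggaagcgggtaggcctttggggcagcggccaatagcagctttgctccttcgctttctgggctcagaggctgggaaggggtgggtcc
Hk2 (chr6:82774455-82774704, minus strand): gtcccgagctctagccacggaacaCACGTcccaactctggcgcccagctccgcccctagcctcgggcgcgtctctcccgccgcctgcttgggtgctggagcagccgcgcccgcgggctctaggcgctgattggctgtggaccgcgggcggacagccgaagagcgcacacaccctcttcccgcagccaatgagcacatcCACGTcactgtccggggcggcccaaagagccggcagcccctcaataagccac
Pfkfb3 (chr2:11553930-11554179, minus strand): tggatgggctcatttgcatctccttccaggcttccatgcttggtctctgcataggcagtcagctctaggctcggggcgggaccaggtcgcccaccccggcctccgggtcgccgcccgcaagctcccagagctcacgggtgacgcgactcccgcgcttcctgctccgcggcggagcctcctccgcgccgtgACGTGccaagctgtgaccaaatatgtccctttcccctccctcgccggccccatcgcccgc

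In the Ldha window shown, the sites began 145, 48 and 34 bases before its start. Ldha has a second start in the table, whose window (chr7:46846832-46847081) holds no ACGTG. The last 20 of the 50 bases after the start shown were in no GENCODE M21 transcript of Ldha, and those after the second start were in one. The sites in Pgk1 began 150 and 131 bases before the start, those in Hk2 226 and 52, and that in the Pfkfb3 window shown 60, with another site 53 bases before a second Pfkfb3 start. The full palindrome bound by the glucocorticoid receptor was in no member window and in 0.00765% of the windows of tested genes, and AGAACA, 1 arm of it, was in 18% of member windows and 11.3% of those of tested genes. TGACNNNGC, the core of the antioxidant response element, was in 8.0% of member windows and 11.8% of those of tested genes, and the NF-kB motif in 6.0% and 8.89%. These are matches of letters in a short window, with no measure of binding.

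In the pentose phosphate branch more genes were higher with LPS at 24 h than at 4 h. By the TMM scale 6 of the 7 genes were higher at 24 h and 1, Pgls, was not called, where 29.7% of all tested genes were called higher and 30.6% lower. At 4 h 2 were higher, 3 lower and 2 not called, where 34.2% of all tested genes were called higher and 38.8% lower. G6pdx (glucose 6-phosphate dehydrogenase, the entry step) was at 174, 169 and 165 CPM untreated and 156, 150 and 161 CPM with LPS at 4 h. This small fall (-0.12 ± 0.05, adjusted p = 0.025) was lost without untreated replicate 1 (adjusted p = 0.098) or LPS replicate 2 (0.11). At 24 h G6pdx was at 193, 210 and 192 CPM untreated and 398, 385 and 379 CPM with LPS (0.97 ± 0.05, adjusted p = 2.3e-19). Its exons share 13.6% of their bases with Ikbkg.

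Pgd (6-phosphogluconate dehydrogenase, the second NADPH step) was at 410, 417 and 401 CPM untreated and 484, 428 and 452 CPM with LPS at 4 h. That difference (0.15 ± 0.06, adjusted p = 0.017) turned to -0.62 with library size alone and was lost without untreated replicate 3 (adjusted p = 0.067), LPS replicate 1 (0.14) or LPS plus dexamethasone 24 h replicate 3 (0.066). By 24 h the levels were at 361, 363 and 353 against 820, 741 and 666 CPM (1.05 ± 0.06, adjusted p = 2.4e-18), again with no overlap. In the non-oxidative part, which rearranges sugars, Rpe rose at both times, by 1.04 ± 0.07 and 0.95 ± 0.07. Rpia, Tkt and Taldo1 rose at 24 h by 0.39, 0.31 and 0.34. With library size alone Rpia (0.19, adjusted p = 0.11) and Tkt (0.11, adjusted p = 0.1) were not called at 24 h. Under that scaling Pgls was called lower (-0.33, adjusted p = 4.2e-06). Of Rpe's exon sequence 17.9% is shared with Kansl1l, and of that of Pgls 20.6% with Fam129c.

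Among the glycogen genes both the synthase and the phosphorylase of liver type were higher at 24 h. Gys1 (glycogen synthase) was at 20.5, 20.3 and 22.4 CPM untreated and 26.2, 23.2 and 33.4 CPM with LPS at 4 h (0.39 ± 0.09, adjusted p = 0.00017, but -0.38 with library size alone). The 24 h levels were 14.6, 13.5 and 13.1 CPM untreated and 131, 129 and 131 CPM with LPS (3.25 ± 0.09, adjusted p = 1.9e-27). Gbe1 (the branching enzyme) was at 19.3, 19.7 and 19.3 against 19.8, 16.7 and 24.2 CPM at 4 h, not called by the TMM scale. With library size alone its 4 h change was -0.71 (adjusted p = 9.5e-08). At 24 h Gbe1 was at 13.1, 13.1 and 14.6 against 46.7, 46.2 and 49.7 CPM (1.81 ± 0.10, adjusted p = 1.8e-18). By the TMM scale Gys1 and Gbe1 thus stood apart from untreated cells mainly at the later time.

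Pygl (glycogen phosphorylase, liver type) was at 34.5, 35.9 and 36.1 CPM untreated and 29.6, 31.4 and 30 CPM with LPS at 4 h (-0.23 ± 0.07, adjusted p = 0.004). The 24 h levels were 61.9, 64.8 and 63.8 against 172, 183 and 175 CPM (1.48 ± 0.06, adjusted p = 8e-22). Pygb (the brain type) was at 92.2, 89.9 and 94.1 against 67.3, 63.9 and 60.3 CPM at 4 h (-0.53 ± 0.07, adjusted p = 5.9e-08) and at 74, 76.2 and 69.6 against 64.3, 63.4 and 57.7 CPM at 24 h (-0.25 ± 0.07, adjusted p = 0.0041). Per kb, Pygl took 37.7% ± 1.15 of the pair in untreated cells at 24 h and 66.6% ± 1.35 with LPS. Ugp2, which makes the glucose donor of glycogen, rose by 0.39 ± 0.06 at 24 h (adjusted p = 3.1e-06).

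The change of the LPS effect between the times was tested directly. It was higher at 24 h than at 4 h, meaning more positive or less negative, for 27 members. It was lower for 3 (Hk3, Pfkp and Pfkfb3) and not called for 4, where 30.8% of all tested genes were called higher and 30.5% lower. The largest differences were 2.86 ± 0.12 for Gys1 and 1.93 ± 0.23 for Pfkfb2, which had fallen less at 24 h. Pfkfb4 and Pygb had also fallen at both times, and less at 24 h. All 6 glycogen genes and 17 of the 21 glycolytic genes were among the 27. The call of Ugp2 (0.24, adjusted p = 0.025) was lost without any 1 of 5 libraries (adjusted p of 0.057 to 0.063). That of Pygb (0.28, adjusted p = 0.019) was lost without untreated 24 h replicate 3 or LPS 4 h replicate 3 (0.051 to 0.052). The untreated level itself differed between the times: 23 members were lower and 7 higher in untreated cells at 24 h than at 4 h, where 30.4% of all tested genes were called lower and 30.6% higher. Eno1 was lower by -1.36 ± 0.06, Pfkl by -1.13 ± 0.06 and Gapdh by -0.99 ± 0.05, while Eno2 (1.25 ± 0.14), Pygl and Hk3 (both 0.84 ± 0.06) were higher.

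**Figure D4:**
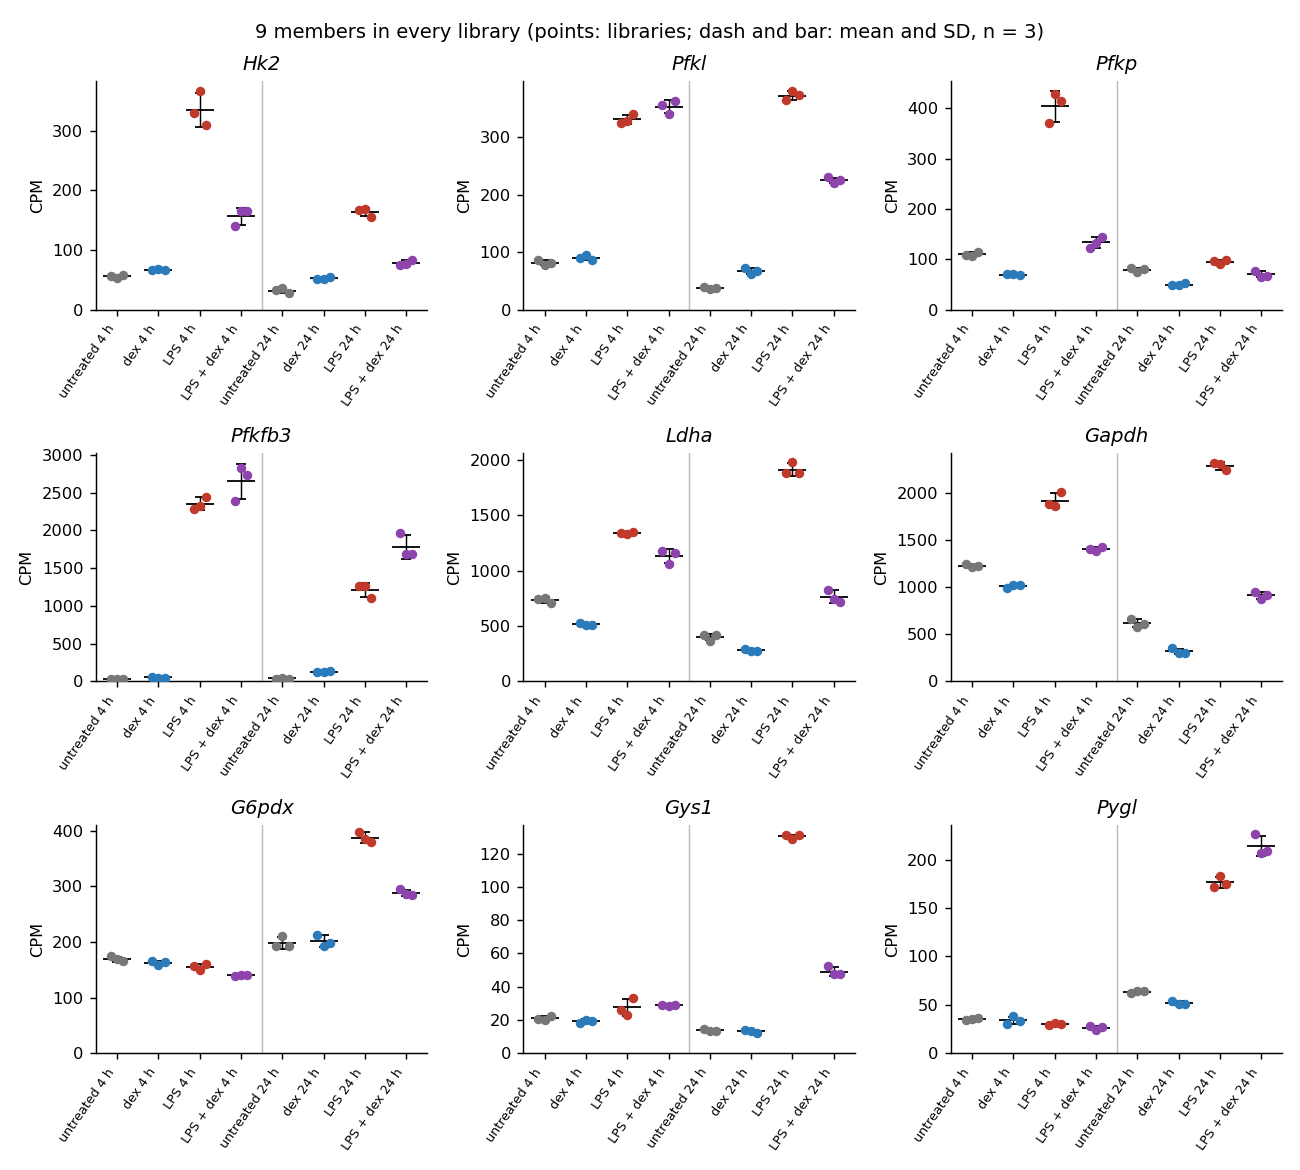
Each panel shows 1 member, with the CPM of every library as points and the mean and SD of 3 libraries as a dash and bar, for untreated, dexamethasone, LPS and LPS plus dexamethasone at 4 h (left of the line) and 24 h (right). By the TMM scale Hk2 and Pfkp are highest in LPS at 4 h, with 309 to 366 and 370 to 429 CPM, while Ldha, Gapdh, G6pdx and Gys1 are highest in LPS at 24 h. Pygl and Pfkfb3 are higher with LPS plus dexamethasone than with LPS at 24 h.

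The next comparison asks what dexamethasone did to cells that also received LPS. At 4 h, 21 members were lower, 7 higher and 6 not called, where 25.4% of all tested genes were called lower and 23.9% higher. At 24 h, 23 were lower, 4 higher and 7 not called, where 22.6% were called lower and 21% higher. The median member log2 fold change was -0.19 at 4 h and -0.47 at 24 h. At least 2-fold lower at 24 h were 9 members, 8 of them glycolytic and the other Gys1, where 5.78% of all tested genes were called at least 2-fold lower. At 4 h there were 2 (Hk2 and Pfkp), where 7.27% were.

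At the rate-setting steps dexamethasone lowered Hk2 at both times. With LPS plus dexamethasone Hk2 was at 140, 165 and 165 CPM at 4 h (-1.09 ± 0.07, adjusted p = 2e-15) and at 74, 77.2 and 82.9 CPM at 24 h (-1.07 ± 0.07, adjusted p = 7.7e-15), below every LPS library. Hk1 was at 129, 125 and 128 CPM at 4 h (-0.79 ± 0.06, adjusted p = 1.8e-13) and at 203, 166 and 170 CPM at 24 h (-0.24 ± 0.06, adjusted p = 0.001). Hk3 was at 152, 144 and 152 CPM at 4 h (-0.90 ± 0.07, adjusted p = 4.4e-14) and at 122, 134 and 150 CPM at 24 h (-0.79 ± 0.07, adjusted p = 1.4e-12). For all 3 hexokinases the libraries with both agents lay below those with LPS alone.

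The 3 phosphofructokinase genes parted ways. Pfkp fell from 370 to 429 CPM with LPS to 123, 133 and 145 CPM with LPS plus dexamethasone at 4 h (-1.60 ± 0.06, adjusted p = 1.1e-21), the largest fall of a member at that time, and was at 76.8, 65.7 and 67.5 CPM at 24 h (-0.44 ± 0.07, adjusted p = 5.5e-07). Pfkm was at 23.2, 17.5 and 23.7 CPM at 4 h, above its 7 to 8.88 CPM with LPS alone (1.39 ± 0.12, adjusted p = 1.3e-12), and at 24.4, 25.2 and 25 CPM at 24 h, overlapping LPS alone. Pfkl was at 356, 340 and 362 CPM at 4 h, not called by the TMM scale (0.09 ± 0.05, adjusted p = 0.15), and fell to 230, 221 and 225 CPM at 24 h (-0.72 ± 0.05, adjusted p = 5.3e-14). Per kb, Pfkp was 36.7% ± 1.65 of the step with LPS at 4 h and 14.4% ± 1.05 with both, and Pfkl 60.3% ± 1.55 and 76.3% ± 1.01.

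Pfkfb3 was not lower with both agents than with LPS at either time. With both agents it was at 2390, 2830 and 2740 CPM at 4 h, overlapping the LPS libraries. That small difference (0.18 ± 0.06, adjusted p = 0.025) was not called with RLE size factors (adjusted p = 0.062) or DESeq2 (0.078), nor without LPS replicate 1 (adjusted p = 0.089) or 2 (0.06) or LPS plus dexamethasone replicate 2 (0.14) or 3 (0.08). By 24 h it was at 1970, 1690 and 1690 CPM, above every LPS library (0.55 ± 0.07, adjusted p = 9.5e-09). Pfkfb4 at 24 h (30.4, 37.8 and 37.5 CPM; adjusted p = 0.14) and Pfkfb2 at 24 h (8.22, 9.1 and 9.45 CPM; adjusted p = 0.54) overlapped LPS alone. At 4 h Pfkfb2 (2.65, 2.42 and 3.21 CPM, 0.61 ± 0.21, adjusted p = 0.017) also overlapped it, and Pfkfb4 (16, 16.6 and 16 CPM, 0.22 ± 0.09, adjusted p = 0.03) did not. Both calls were lost in a fit of only the groups compared (adjusted p = 0.097 and 0.082), and that of Pfkfb4 also with RLE size factors (0.053) and DESeq2 (0.063). Without LPS replicate 1 or 3 or LPS plus dexamethasone replicate 3 that of Pfkfb2 had adjusted p = 0.1, 0.082 and 0.09, and without LPS replicate 2 or 3 or LPS plus dexamethasone replicate 2 that of Pfkfb4 had 0.12, 0.053 and 0.076.

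Besides Pfkl and Pfkp above and Eno2 below, 10 genes from the isomerase Gpi1 down to Ldha were lower with both agents at 24 h. Tpi1 was at 371, 358 and 342 CPM with both agents at 24 h, against 1050 to 1180 CPM with LPS (-1.64 ± 0.06, adjusted p = 2.5e-23). Gapdh was at 948, 878 and 916 CPM (-1.32 ± 0.05, adjusted p = 1.6e-21) and Ldha at 830, 741 and 722 CPM (-1.32 ± 0.06, adjusted p = 6e-21). Aldoc was at 13.1, 12.6 and 14.4 CPM against 30.8 to 39 CPM with LPS (-1.39 ± 0.10, adjusted p = 1.1e-14). Pgk1 (-1.32), Pkm (-1.32) and Eno1 (-1.14) were also more than 2-fold lower, and Aldoa (-0.82), Pgam1 (-0.75) and Gpi1 (-0.47) less so. None of these 10 genes overlapped LPS alone at 24 h. The share of all tested genes without overlap between groups was not counted, for this or any other comparison.

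At 4 h the same 10 genes were between -0.53 and 0.19. Gpi1 was the one that was higher, at 444, 444 and 445 CPM (0.19 ± 0.05, adjusted p = 0.0021), and Pgam1 at -0.16 turned to 0.06 with library size alone. The fall under LPS was larger at 24 h than at 4 h by a test of the difference for all 10, from -1.10 for Tpi1 and -1.09 for Ldha to -0.47 for Aldoa. Over all members this difference was called lower for 18, higher for 6 and not called for 10, where 19.8% of all tested genes were called lower and 19% higher.

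Among the minor genes, Ldhb at 24 h and Eno2 at 4 h were higher with both agents than with LPS. Ldhb was at 11, 12 and 11.8 CPM at 24 h, above the 7.13 to 8.48 CPM of LPS alone (0.57 ± 0.18, adjusted p = 0.0099), and its share of the lactate dehydrogenase pair per kb was 3.12% ± 0.339 against 0.852% ± 0.0949. Eno2 was at 17.1, 20.5 and 17.5 CPM at 4 h, above the 6.43 to 7.56 CPM of LPS alone (1.40 ± 0.15, adjusted p = 3.4e-09), and at 21.9, 20.7 and 24.8 CPM at 24 h, below it (-0.47 ± 0.13, adjusted p = 0.0034).

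In the pentose phosphate branch none of the 7 genes was higher with both agents than with LPS, 5 being lower at 4 h and 4 at 24 h. Of all tested genes 23.9% were called higher and 25.4% lower at 4 h, and 21% higher and 22.6% lower at 24 h. With library size alone 4 of the 5 calls at 4 h were lost: G6pdx and Pgd stood at 0.07 each, Tkt at 0.02 and Taldo1 at -0.05 (adjusted p = 0.47). G6pdx was at 139, 141 and 141 CPM at 4 h and at 295, 286 and 284 CPM at 24 h, a log2 fold change of -0.42 ± 0.05 (adjusted p = 2.1e-09) at the later time. Pgd was at 414, 420 and 391 CPM at 4 h and fell to 419, 391 and 400 CPM at 24 h (-0.88 ± 0.06, adjusted p = 1.2e-15), below every LPS library. The 4 h calls were small, -0.15 ± 0.05 for G6pdx and -0.16 ± 0.06 for Pgd. That of G6pdx was lost without LPS replicate 3 (adjusted p = 0.072), that of Tkt without LPS replicate 1 (0.098), and that of Pgd without LPS replicate 1 (0.16) or LPS plus dexamethasone replicate 3 (0.11).

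Synthesis and breakdown of glycogen were split at 24 h. Gys1 was at 52.3, 47.4 and 47.6 CPM with both agents, below the 129 to 131 CPM of LPS alone (-1.41 ± 0.08, adjusted p = 1.6e-17), and Gbe1 at 35.3, 30.1 and 33.7 CPM (-0.52 ± 0.09, adjusted p = 8.4e-06). Pygl was at 226, 207 and 209 CPM, above the 172 to 183 CPM of LPS alone (0.28 ± 0.06, adjusted p = 0.00016), and took 72.6% ± 1.91 of the phosphorylase pair per kb. Pgm2 (a phosphoglucomutase) was at 44.9, 43 and 46.4 CPM against 34.8, 38.3 and 35.2 CPM (0.31 ± 0.07, adjusted p = 0.00027). The synthesis genes were thus lower and the phosphorylase higher than with LPS alone.

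At 4 h the order was another one. Gys1, at 29.1, 28.3 and 29.2 CPM, lay within the range of LPS alone. Gbe1, at 31.2, 32.6 and 32.8 CPM, lay above it (0.67 ± 0.10, adjusted p = 3.8e-07). Pygb, at 28.7, 39.9 and 30.7 CPM, lay below it (-0.95 ± 0.08, adjusted p = 1.3e-12). Pygl, at 28.1, 24.3 and 27.4 CPM, had a call (-0.19 ± 0.07, adjusted p = 0.034) that turned to 0.04 with library size alone and was lost without LPS replicate 2 (adjusted p = 0.12) or 3 (0.053), LPS plus dexamethasone replicate 2 (0.21) or LPS plus dexamethasone 24 h replicate 3 (0.057).

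Set against untreated cells, the agents together left most of these enzymes raised at 24 h. There 23 members were higher, 5 lower and 6 not called, where 28.8% of all tested genes were called higher and 30.3% lower. With library size alone 10 members were lower, a count to which those shares do not apply. Pfkfb3 (5.43 ± 0.08), Pfkl (2.59 ± 0.06), Gys1 (1.84 ± 0.09), Pygl (1.75 ± 0.06), Ldhb (1.56 ± 0.19), Hk2 (1.28 ± 0.08), Gbe1 (1.28 ± 0.10), Hk1 (1.27 ± 0.06) and Pgk1 (1.03 ± 0.06) were more than 2-fold above untreated cells. Tpi1 (0.58), Gapdh (0.57), Ldha (0.93), Pkm (0.30) and Pgd (0.17, lost without LPS plus dexamethasone replicate 1 at adjusted p = 0.056) were closer to them. The 5 lower members were Hk3 (-1.16 ± 0.07), Pfkfb4 (-0.77 ± 0.07), Pygb (-0.38 ± 0.07), Ugp2 (-0.27 ± 0.07) and Pfkp (-0.18 ± 0.07). The call of Pfkp was lost without untreated replicate 1 or 3 or LPS plus dexamethasone replicate 2 or 3, at adjusted p of 0.088, 0.065, 0.13 and 0.099.

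At 4 h, LPS plus dexamethasone against untreated found 13 members higher, 12 lower and 9 not called, where 33.7% of all tested genes were called higher and 36.5% lower. With library size alone 4 members were higher and 23 lower, counts to which those shares do not apply. Pfkfb3 (6.45 ± 0.08), Pfkl (2.10 ± 0.06), Hk2 (1.48 ± 0.07) and Pgk1 (1.01 ± 0.06) were at least 2-fold higher by the TMM scale.

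Dexamethasone alone was compared with untreated cells, to set its own effect beside that under LPS. At 4 h, 9 members were higher, 11 lower and 14 not called, where 17.6% of all tested genes were called higher and 23.7% lower. At 24 h, 9 were higher, 19 lower and 6 not called, where 21.9% were called higher and 26.5% lower. The median member log2 fold change was -0.03 at 4 h and -0.30 at 24 h. Of the 19 that were lower at 24 h, 14 were glycolytic, 2 of the pentose phosphate branch and 3 of glycogen metabolism.

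Pfkfb3 was also the member that dexamethasone alone raised most at 24 h. It was at 54.8, 52 and 52.7 CPM at 4 h (0.81 ± 0.08, adjusted p = 6.4e-11) and at 129, 125 and 135 CPM at 24 h (1.65 ± 0.07, adjusted p = 1.6e-19), above all untreated libraries. Hk2 was at 66.3, 67.3 and 66.8 CPM at 4 h (0.25 ± 0.07, adjusted p = 0.005) and at 51.3, 52 and 55 CPM at 24 h (0.72 ± 0.08, adjusted p = 8.5e-10). Pfkl was at 73.1, 61.7 and 67.1 CPM at 24 h (0.84 ± 0.06, adjusted p = 1.3e-14). These 3 genes of the rate-setting steps were higher with dexamethasone alone at 24 h. Pfkm, at 20.1, 17.9 and 21.9 CPM, and Pfkfb2 were also called there, but the call of Pfkm was lost without untreated replicate 3 (adjusted p = 0.077) or dexamethasone replicate 3 (0.11). That of Pfkfb2 was lost without untreated replicate 1 (0.14) or 3 (0.065) or dexamethasone replicate 2 (0.11) or 3 (0.07).

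At 4 h Gbe1 rose to 39.9, 31.8 and 32.2 CPM (0.83 ± 0.09, adjusted p = 2.2e-09) and Gpi1 to 703, 693 and 679 CPM (0.67 ± 0.05, adjusted p = 7.1e-14). Both lay above all untreated libraries. Hk1, at 180, 174 and 165 CPM, was also higher at 4 h (0.45 ± 0.06, adjusted p = 1.1e-07), and at 24 h, at 77.2, 77 and 81.1 CPM, it was not called (adjusted p = 0.33). Pgd was higher at both times, by 0.36 ± 0.06 and 0.22 ± 0.06, at 514, 529 and 534 CPM and at 436, 398 and 418 CPM.

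The falls with dexamethasone alone were led by minor isoenzymes. Aldoc was at 18.4, 16.8 and 18.7 CPM at 4 h (-0.63 ± 0.09, adjusted p = 5.5e-07) and at 2.03, 2.54 and 1.97 CPM at 24 h (-2.74 ± 0.13, adjusted p = 1.8e-19). Eno2 was at 4.9, 3.32 and 5.16 CPM at 4 h (-1.23 ± 0.16, adjusted p = 1.5e-07) and at 4.97, 6.02 and 8.01 CPM at 24 h (-1.98 ± 0.14, adjusted p = 2.5e-13). Neither gene's libraries overlapped the untreated ones. Hk3 was at 171, 172 and 175 CPM at 4 h, not called, and at 113, 124 and 133 CPM at 24 h (-1.29 ± 0.07, adjusted p = 1.8e-18).

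Pfkp was lower at both times, at 70, 70.1 and 68.9 CPM (-0.67 ± 0.06, adjusted p = 6.1e-11) and at 48.2, 48.2 and 52.2 CPM (-0.68 ± 0.07, adjusted p = 6.2e-11). Pfkfb4 was at 26.4, 25.8 and 26.9 CPM at 4 h (-0.59 ± 0.07, adjusted p = 9.5e-09) and at 37.7, 35.7 and 36.4 CPM at 24 h (-0.72 ± 0.07, adjusted p = 2.9e-11). With Pfkfb3 rising, Pfkfb3's share of the PFKFB genes per kb was 50.5% ± 0.455 at 4 h and 64.5% ± 0.858 at 24 h, against 29.9% ± 1.27 and 28.1% ± 1.54 in untreated cells. Among the abundant steps, Gapdh was at 350, 307 and 304 CPM at 24 h (-0.95 ± 0.05, adjusted p = 2.4e-17) and Ldha at 294, 275 and 273 CPM (-0.52 ± 0.06, adjusted p = 6.8e-10).

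G6pdx did not pass the test at either time (adjusted p = 0.37 and 0.74), nor did Gys1 (0.26 and 0.61). Ldhb, at 3.15, 2.27 and 2.68 CPM at 24 h, overlapped untreated cells, and its call (-0.54 ± 0.22, adjusted p = 0.042) was lost without untreated replicate 2 (0.14) or 3 (0.13) or dexamethasone replicate 2 (0.16) or 3 (0.093). Pygl was at 54.2, 51 and 50.7 CPM at 24 h (-0.29 ± 0.06, adjusted p = 0.00021), lower than in untreated cells.

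**Figure D5:**
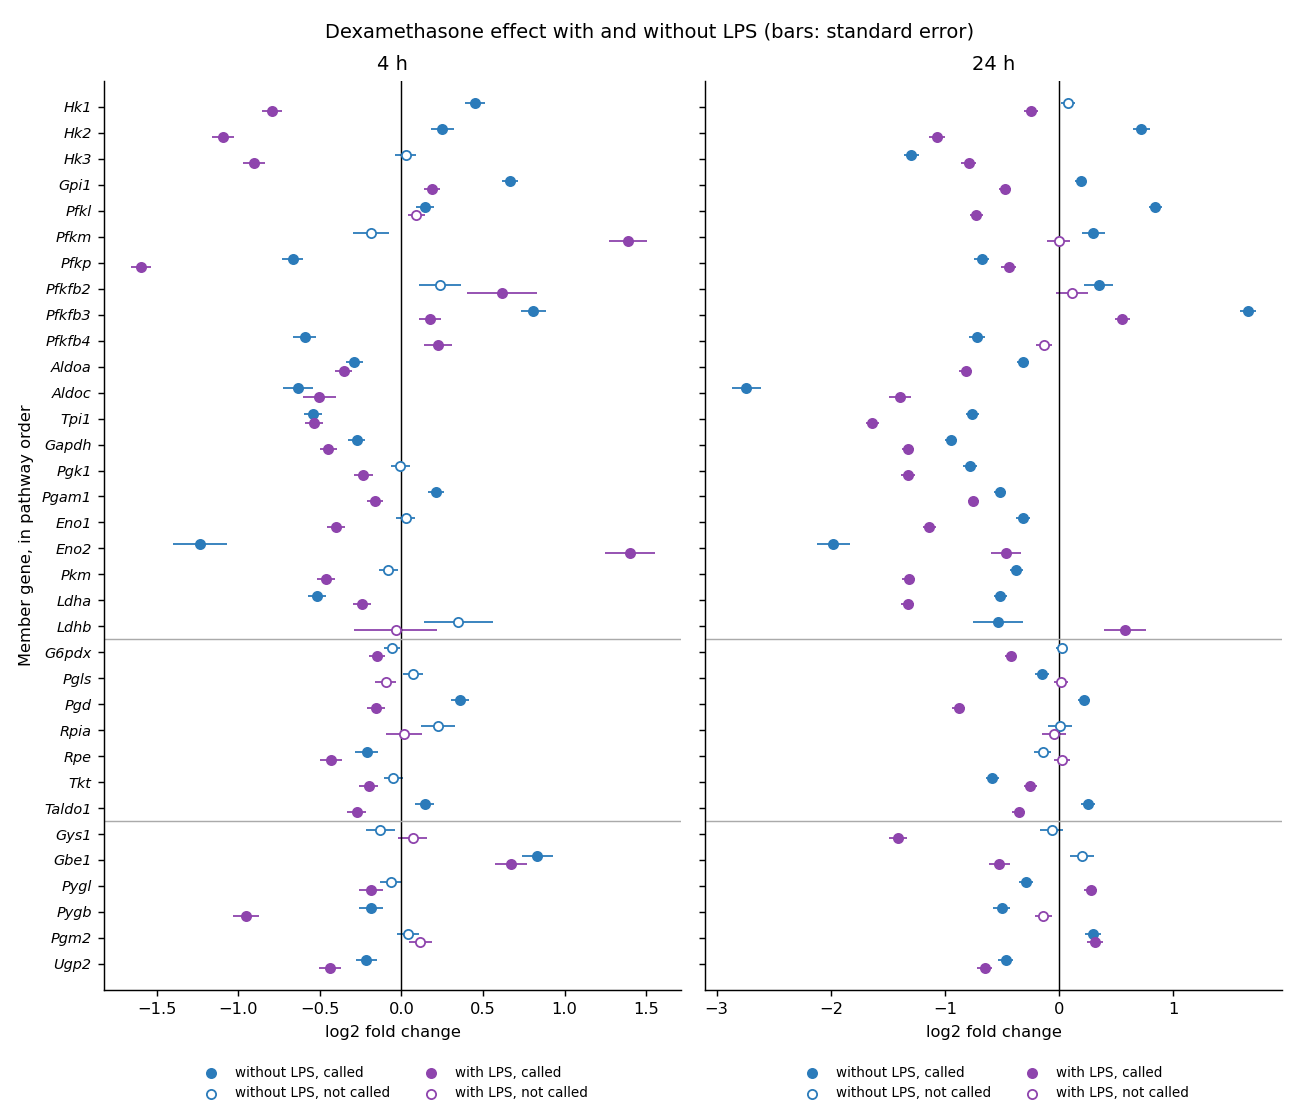
Rows are member genes, the horizontal axis is the log2 fold change for dexamethasone with its standard error, blue against untreated and purple against LPS, at 4 h on the left and 24 h on the right, with filled points called. At 24 h Pfkl goes from 0.84 without LPS to -0.72 with it and Hk2 from 0.72 to -1.07, while Aldoc goes from -2.74 to -1.39.

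Whether the dexamethasone effect depended on LPS was tested as an interaction. At 4 h the effect was lower with LPS than without for 13 members, higher for 4 and not called for 17, where 17.9% of all tested genes were called lower and 20.8% higher. With library size alone 10 members were higher, a count to which those shares do not apply. At 24 h it was lower for 18, higher for 9 and not called for 7, where 17.8% of all tested genes were called lower and 20.5% higher. The 18 included Gys1 (-1.34 ± 0.12), Pkm (-0.94 ± 0.08), Tpi1 (-0.87 ± 0.08), Eno1 (-0.82 ± 0.08) and Ldha (-0.81 ± 0.08). The 9 included Eno2 (1.51 ± 0.20) and Aldoc (1.35 ± 0.17), whose falls were smaller with LPS than without.

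Genes that act beside these enzymes were read from further lists. Of 11 tested genes for glucose and lactate transport, 7 were higher and 4 lower with LPS at 24 h, and 3 were higher and 7 lower with both agents than with LPS. The shares of all tested genes to set beside these and the following counts are 29.7% higher and 30.6% lower with LPS at 24 h, and 21% higher and 22.6% lower with both agents than with LPS at 24 h. Slc16a3, the main lactate exporter of such cells, went from 31.5 ± 3.84 CPM untreated to 492 ± 44.2 CPM with LPS and 73.7 ± 7.55 CPM with both at 24 h (-2.74 ± 0.10 for both against LPS, adjusted p = 3e-16). Slc16a1, another lactate carrier, was lower with both agents by -2.15 ± 0.11. The glucose carrier Slc2a1 was at 30 ± 3.51 CPM untreated, 217 ± 14.8 CPM with LPS and 62.3 ± 5.22 CPM with both at 24 h (-1.80 ± 0.07 for both against LPS, adjusted p = 2.2e-21). Slc2a6, of the same carrier family, rose by 6.14 ± 0.08 at 4 h and 2.88 ± 0.07 at 24 h with LPS, and was lower with both agents at 24 h, at 228 ± 12.5 against 358 ± 4.66 CPM (-0.65 ± 0.06, adjusted p = 6.6e-11). The glucose carrier Slc2a3, at a low level, went the other way, from 3.8 ± 0.503 CPM with LPS to 16 ± 1.55 CPM with both (2.07 ± 0.14, adjusted p = 1.2e-14).

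Of 14 tested genes that govern entry of pyruvate into mitochondria, 10 were higher and 2 lower with LPS at 24 h, and 7 were higher and 4 lower with both agents than with LPS. Pdk1, a kinase that switches pyruvate dehydrogenase off, was lower with both agents (-1.53 ± 0.08, adjusted p = 8.2e-18). Pdha1, a subunit of that enzyme, was higher (0.53 ± 0.06, adjusted p = 5.4e-10). Pdk2, another kinase of that enzyme, went the other way from Pdk1, from 7.92 ± 0.676 CPM with LPS to 13.9 ± 1.8 CPM with both at 24 h. A further one, Pdk3, was at 27 ± 2.47 and 22.8 ± 2.51 CPM. Of 16 tested regulators of glycolysis, 9 were higher and 4 lower with LPS at 24 h, and 5 higher and 8 lower with both agents than with LPS. Hif1a, the oxygen-regulated subunit of the hypoxia-inducible factor, was at 72.9 ± 3.72 CPM untreated, 751 ± 31.2 CPM with LPS and 143 ± 12.2 CPM with both at 24 h (-2.40 ± 0.06 for both against LPS, adjusted p = 3e-27). Egln3, a prolyl hydroxylase, changed by -3.30 ± 0.28 in the same comparison. Ddit4, a stress gene that curbs mTOR and a glucocorticoid target, rose by 4.09 ± 0.08 there.

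Of 18 tested isoenzyme and side genes outside the 34, 8 were higher and none lower with LPS at 24 h, and 6 were higher and 4 lower with both agents than with LPS. Pgm1, the main phosphoglucomutase, rose by 2.45 ± 0.07 with LPS at 24 h and was lower with both agents by -1.39 ± 0.07. Of 18 other glycogen genes, 7 were higher and 7 lower with LPS at 24 h, with Gyg, the primer of glycogen, at -1.58 ± 0.05. With both agents 1 was higher and 6 were lower than with LPS, among the lower ones Epm2a at -2.01 ± 0.18. Phka2, a subunit of phosphorylase kinase, was at 28.6 ± 2.51 CPM with LPS and 58 ± 1.43 CPM with both at 24 h. Of 12 genes for the use or supply of NADPH, 9 were higher and 1 lower with LPS at 24 h, and 3 were higher and 6 lower with both agents than with LPS. Me1, the cytosolic malic enzyme and a further NADPH source, rose by 3.26 ± 0.16 with LPS and was lower with both agents by -2.91 ± 0.16, and Nos2, which uses NADPH to make nitric oxide, was at 235 ± 52 CPM with LPS and 2.03 ± 1.16 CPM with both.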

How the data were processed

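RNA-seq of mouse bone marrow-derived macrophages in 24 libraries (8 groups of 3) was used as a table of raw read counts per gene. Reads were aligned with STAR and counted by the authors with featureCounts 2.0.0 as read pairs over exons without regard to strand, per the file headers and the submitters' processing notes, so reads of a gene and an antisense partner cannot be told apart. The header names GENCODE M29, which is built on GRCm39, while the processing notes name GRCm38 and mm10. The deposited counts were not normalized. The labels' protocols name the RNeasy kit.

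Here the counts were fitted in R 4.3.3 with edgeR 4.0.16 (TMM factors of 0.679 to 1.18, filterByExpr, robust quasi-likelihood fit) as 1 model of the 8 groups with 16 residual degrees of freedom. From it 13 contrasts were tested with Benjamini-Hochberg adjustment over 14985 genes, at a threshold of 0.05. The biological coefficient of variation was 6.29%. Replicate pairs differed by more than counting noise, with a chi-square of 3.1 to 8.45 per gene. Alternatives were RLE size factors, library size only, DESeq2 1.42.0, no filter, only the groups compared, a replicate block and leaving out each library. The script was tested on simulated counts.

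The members and the other gene lists were chosen with earlier results of these data known. Named members are the 3 strongest rises and falls per comparison among those with a mean of at least 5 CPM, plus the genes of the regulated steps. Symbols were found for 52081 of the 55357 identifiers, and no column was left unused. Of the members, 15 have exons that overlap another gene and 13 have near-identical genes. The lists of other cell types are markers of neutrophils, dendritic cells, lymphocytes, mast cells and basophils, erythroid cells, and stroma and endothelium.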

Additional observations from a re-analysis of the deposited data

Results flagged for a closer look

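For the results below a test of the difference between 2 effects passed the threshold (edgeR's quasi-likelihood test, Benjamini-Hochberg adjustment), and both effects were called in opposite directions. Each difference is on the log2 scale, with n = 3 libraries per group.

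The LPS effect at 24 h differed in direction from that at 4 h for 8 members. It was positive at 24 h and negative at 4 h for Pygl (difference 1.703), Aldoc (1.57), Gpi1 (1.504), Pfkm (1.3), G6pdx (1.089), Eno2 (0.9045) and Taldo1 (0.5001). For Hk3 it was negative at 24 h and positive at 4 h (-1.089), and its 4 h effect turned to -0.06 with library size alone. The 4 h effects of Gpi1, G6pdx and Taldo1 were under 0.17 in size and were not called with RLE size factors. The 24 h effect of Eno2 was lost without untreated replicate 2 or LPS replicate 1 or 3 (adjusted p up to 0.21).

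The dexamethasone effect under LPS was negative at 24 h and positive at 4 h for Eno2 (difference -1.867), Gbe1 (-1.199) and Gpi1 (-0.6589). For Pygl it was positive at 24 h and negative at 4 h (0.4617), and the 4 h effect turned to 0.04 with library size alone.

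At 4 h dexamethasone raised Hk2, Hk1, Pgd, Taldo1 and Pgam1 without LPS and lowered them with it, with differences of -1.343, -1.242, -0.5161, -0.417 and -0.3712. The effect under LPS turned to 0.07 for Pgd and 0.06 for Pgam1 with library size alone, and was lost for Pgd without LPS replicate 1 or LPS plus dexamethasone replicate 3 and for Pgam1 without LPS replicate 3 or LPS plus dexamethasone replicate 2 (adjusted p up to 0.16 and 0.065). For Taldo1 the rise without LPS (0.14, adjusted p = 0.046) was lost with library size alone (adjusted p = 0.063) and without any 1 of 8 libraries: untreated 4 h replicate 1 or 3, untreated 24 h replicate 1 or 3, dexamethasone 4 h replicate 2 or 3, dexamethasone 24 h replicate 3 or LPS plus dexamethasone 24 h replicate 2 (adjusted p of 0.051 to 0.32). Its fall under LPS went to -0.05 (adjusted p = 0.47) with library size alone, and the differences for Taldo1 and Pgam1 were not called there (adjusted p = 0.063 and 0.12).

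Also at 4 h, Eno2 (2.633) and Pfkfb4 (0.8157) were lower with dexamethasone alone and higher with it under LPS. The Pfkfb4 effect under LPS (0.22, adjusted p = 0.03) was lost with RLE size factors (0.053), DESeq2 (0.063), a fit of only the groups compared (0.082), and without LPS replicate 2 or 3 or LPS plus dexamethasone replicate 2 (0.053 to 0.12).

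At 24 h dexamethasone raised Hk2, Pfkl, Pgd, Gpi1 and Taldo1 without LPS and lowered them with it, with differences of -1.789, -1.567, -1.098, -0.6628 and -0.6088. Ldhb (1.111) and Pygl (0.565) were lower with dexamethasone alone and higher with it under LPS. The Ldhb effect without LPS was lost on leaving out untreated replicate 2 or 3 or dexamethasone replicate 2 or 3 (adjusted p of 0.093 to 0.16).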

How the results depend on the processing

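Only scaling by library size turned the direction of an effect that was called in the main fit or in the alternative. A turn of an effect called in neither was not counted as reversed. Of 442 member effects (34 members in 13 comparisons, called or not) it left 361 on the same side of the threshold, weakened 24, strengthened 26 and reversed 31; the cause was not tested. With it, LPS at 4 h gave 6 members higher and 25 lower, LPS plus dexamethasone against LPS at 4 h 13 lower, LPS plus dexamethasone against untreated 4 higher and 23 lower at 4 h and 10 lower at 24 h, and the dexamethasone effect with against without LPS at 4 h 10 higher. With RLE size factors and with DESeq2, LPS at 4 h gave 7 lower. The shares of all tested genes called under these settings are not given here. The reversed values for LPS at 4 h were Hk3 -0.055, Aldoa -0.39, Tpi1 -0.16, Gapdh -0.12, Pgam1 -0.12, Eno1 -0.30, Pkm -0.69, Pgd -0.62, Rpia -0.68, Gys1 -0.38, Gbe1 -0.71 and Ugp2 -0.62. For LPS plus dexamethasone against LPS at 4 h they were Pgam1 0.062, G6pdx 0.072, Pgd 0.066, Tkt 0.022 and Pygl 0.037. Against untreated at 4 h they were Hk1 -0.54, Gpi1 -0.52, Pfkp -0.27, Aldoa -0.52, Tpi1 -0.47, Gapdh -0.35, Pgam1 -0.055, Eno1 -0.48, Rpia -0.44 and Gys1 -0.088. For the LPS effect at 24 h against 4 h they were Hk2 0.35 and Rpe 0.48, and for the dexamethasone effect with against without LPS at 4 h Pfkl 0.18 and Pgk1 0.0072.

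Of the 442 member effects, called or not, 423 stayed on the same side of the threshold with RLE size factors, 421 with DESeq2, 435 with no filter and 425 in a fit of only the groups compared. Same-numbered libraries did not deviate together (r of -0.198 to 0.101), and the replicate block changed no call, with 17 higher and 12 lower for LPS at 4 h. Leaving out single libraries gave 10463 of 10608 values on the same side of the threshold and none reversed. LPS then gave 15 to 17 higher and 10 to 12 lower at 4 h and 27 to 28 higher at 24 h, and LPS plus dexamethasone against LPS 23 lower at 24 h each time.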
